A study of Sus scrofa with 8 samples.

Results

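The bone morphogenetic protein (BMP) pathway was followed in the chromatin of pig fibroblasts through 10 genes: the ligands BMP2, BMP4 and BMP7, the secreted antagonists GREM1 and NOG, the receptors BMPR1A and BMPR2, and the target genes ID1, ID2 and ID3. They were chosen by name and by their role in the pathway, with no measured value in the rule, though with earlier results of these data known, and all 10 were found among the 28077 RefSeq genes (19487 protein-coding) on pig chromosomes 1 to 18 and X, assembly Sscrofa11.1. For each gene, peaks were taken within 1 kb of the gene start, in the gene body and within 100 kb of the start. The data are lists of ChIP-seq peaks of pig embryonic fibroblasts (PEFs), which came from Large White pig fetuses at 35 days of age and were kept in culture for 24 h without further treatment. Peaks were deposited for the histone mark H3K4me3, found at promoters, for the histone mark H3K27ac, found at active promoters and enhancers, and for CTCF, a DNA-binding protein that anchors chromatin loops, with 2 replicates each. The labels describe all groups as the same kind of cells, pulled down with different antibodies and with separate input libraries for the histone marks and for CTCF. They do not say whether replicates came from separate fetuses or cultures. A single cell state was profiled, so that no comparison between conditions exists and no test was made, and the values are descriptions of these 6 libraries.

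BMPs are secreted dimers of the TGF-beta superfamily. They bind a complex of type I receptors such as BMPR1A and the type II receptor BMPR2, which phosphorylates SMAD1, SMAD5 and SMAD9. These SMADs enter the nucleus with SMAD4 and switch on target genes, of which ID1, ID2 and ID3 are the best known. The ID proteins lack a DNA-binding domain and hold back basic helix-loop-helix factors by pairing with them. Noggin, the product of NOG, and gremlin, the product of GREM1, bind BMPs outside the cell and keep them from their receptors. In fibroblasts and other mesenchymal cells the pathway is known for its part in bone and cartilage formation and in limb development.

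In replicates 1 and 2, the H3K4me3 lists held 37932 and 43516 peaks, the H3K27ac lists 74983 and 81164, and the CTCF lists 40289 and 44682. A peak's fold enrichment is the signal at its summit over the control as the authors' peak caller gave it. Read counts are not part of the lists, which leaves the depth of each peak unknown and allows no counting interval. All 14 fibroblast markers carried both histone marks at the start in both replicates, among them COL1A1, PDGFRA, PRRX1 and TWIST1. Of 19 markers of epithelial, endothelial, blood, muscle and neural cells, 11 carried H3K4me3 and 3 carried H3K27ac, namely SPI1 of blood and DES and MYOG of muscle.

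All 10 BMP pathway genes carried H3K4me3 within 1 kb of the start in both replicates, against 68.9% of all protein-coding genes. H3K27ac was present at 9 of the 10 in both replicates, against 60.7%, and BMP7 was without it in either replicate. None of the 10 carried CTCF within 1 kb of the start in either replicate, against 17.9% with CTCF in both. Both histone marks together were found at 9 genes, against 58.9%. With 10 genes such counts carry little weight beside these shares, and the genes differed more in how strong and how wide the marks were.

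The fold enrichment of H3K4me3 at the start was higher in replicate 1 than in replicate 2 for all 10 genes. The median over all protein-coding genes with a peak moved in the same way, from 52.0 in replicate 1 to 25.2 in replicate 2, so that values are set against the median of their own library. Percentiles among the genes with a peak in the same library are given where they help. H3K27ac was higher in replicate 2 for 8 of the 9 genes that carried it, with medians over all genes of 16.4 and 19.2, and NOG was the exception.

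**Figure D1:**
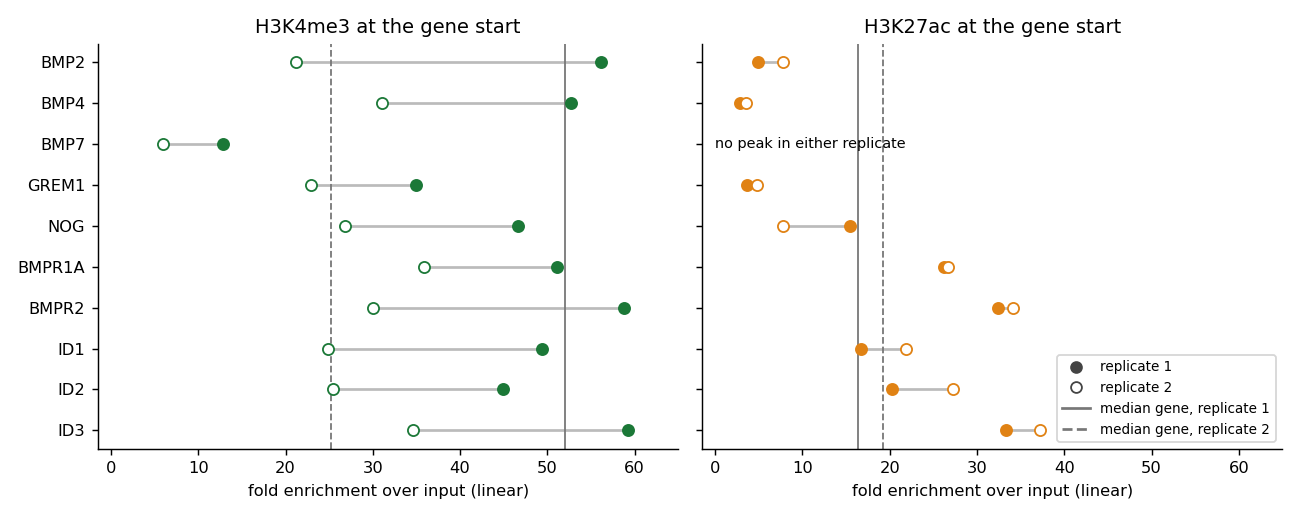
Fold enrichment over input (linear axis) of the strongest H3K4me3 peak (left) and H3K27ac peak (right) within 1 kb of each gene start, with replicate 1 as filled and replicate 2 as open points, and vertical lines at the median protein-coding gene with a peak. BMP7 sits lowest for H3K4me3 at 12.8 and 5.92 and had no H3K27ac peak, and BMPR2 at 32.4 and 34.1 and ID3 at 33.3 and 37.2 sit highest for H3K27ac.

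Among the ligands, BMP2 (chr17:15750487-15762982, plus strand), a driver of bone and heart development, had H3K4me3 near the median gene with a peak and H3K27ac far below it. H3K4me3 reached 56.2 and 21.2 in replicates 1 and 2, over widths of 3860 and 4198 bp. H3K27ac reached 4.92 and 7.79, over 1232 and 1509 bp, at the 6.91st and 13.9th percentile of genes with such a peak. For H3K4me3 the replicates lay on either side of the median, at the 58.9th and 34.1st percentile. A second H3K27ac region with a peak in both replicates lay over the 3′ end of the gene, from 11787 to 12624 bp after the start, at a fold enrichment of 3.00 and 2.96.

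BMP4 (chr1:183415989-183422888, minus strand), which is needed for mesoderm formation and limb patterning, had H3K4me3 of 52.8 and 31.1 over 5647 and 5881 bp. Its H3K4me3 summit was not at the start of the gene record but 3592 and 3641 bp downstream of it, near a transcript start that RefSeq places 3270 bp into the gene. H3K27ac followed the same pattern. At the start of the gene record it was broken into small peaks of 2.80 to 3.55, with a −log10 q-value of 2.58 to 4.54. From 2559 to 4896 bp into the gene, around the downstream transcript start, it formed a region of 2338 bp with a fold enrichment of 8.95 and 9.09. In both replicates the H3K4me3 summit and the stronger H3K27ac thus lay at the internal start of BMP4. A further H3K4me3 region without H3K27ac lay upstream, from -6741 to -5570 bp, at 16.7 and 8.75.

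BMP7 (chr17:57567770-57676516, minus strand), which acts in kidney, eye and skeleton, had the weakest H3K4me3 of the 10 genes, at 12.8 and 5.92, which are the 6.44th and 4.11th percentile of genes with a peak. The peak was 2474 and 2713 bp wide and began at -290 and -335 bp from the start. H3K27ac was found at none of its 3 annotated transcript starts in either replicate. H3K4me3 in both replicates without H3K27ac in either was found at 8.25% of protein-coding genes, and BMP7 was the only one of the 10. The long gene body held 3 further H3K4me3 regions with a peak in both replicates, at 51561 to 52298, 57695 to 58490 and 91691 to 92572 bp after the start, with fold enrichments between 2.96 and 5.74. The middle one overlapped an H3K27ac region of 3.06 and 2.55, the only H3K27ac in the body of BMP7 that both replicates shared.

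The antagonists differed in H3K27ac more than in H3K4me3. GREM1 (chr1:136617041-136629293, plus strand), encoding gremlin, had H3K4me3 of 34.9 and 22.9 over 3840 and 4349 bp, below the median in both libraries. Its H3K27ac near the start was a small peak of 696 and 557 bp that ended 102 and 90 bp short of the start, with a fold enrichment of 3.63 and 4.77. These are the 2.99th and 6.29th percentile of genes with an H3K27ac peak. No other H3K27ac region with a peak in both replicates lay within 100 kb of GREM1 except at the start of its neighbour SCG5. NOG (chr12:32891321-32892206, plus strand), encoding noggin, had H3K4me3 of 46.7 and 26.9 over 6328 and 6221 bp. H3K27ac covered the same stretch and slightly more, 6814 and 6856 bp, at 15.4 and 7.82. At NOG a wide H3K27ac domain thus went with a fold enrichment below the median in both replicates. The whole annotated gene, 886 bp long, lay inside both domains. The promoters of the pair are shown side by side (250 bases before the start, plus strand, RefSeq Sscrofa11.1, chr1:136616791-136617040 for GREM1 and chr12:32891071-32891320 for NOG), with CG pairs in capitals, of which GREM1 holds 21 and NOG 33.
GREM1 promoter: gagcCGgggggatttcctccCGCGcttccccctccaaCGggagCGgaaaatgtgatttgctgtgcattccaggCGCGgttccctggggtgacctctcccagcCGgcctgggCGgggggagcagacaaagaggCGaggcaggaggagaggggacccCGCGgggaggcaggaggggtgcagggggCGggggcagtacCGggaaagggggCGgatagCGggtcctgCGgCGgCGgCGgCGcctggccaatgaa
NOG promoter: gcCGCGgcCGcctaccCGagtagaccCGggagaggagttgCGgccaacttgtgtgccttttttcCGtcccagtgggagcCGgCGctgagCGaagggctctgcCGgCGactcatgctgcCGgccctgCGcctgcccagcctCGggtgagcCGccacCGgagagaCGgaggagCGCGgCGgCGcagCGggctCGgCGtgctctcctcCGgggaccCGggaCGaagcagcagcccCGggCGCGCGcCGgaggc

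Both receptors had H3K27ac above the median gene with a peak in both replicates. BMPR1A (chr14:87743270-87891790, plus strand), a type I receptor kinase, had H3K4me3 of 51.0 and 35.8, at the 48.0th and 87.8th percentile, and H3K27ac of 26.2 and 26.7, over 4128 and 3717 bp. BMPR2 (chr15:105971577-106132496, plus strand), the type II receptor kinase, had H3K4me3 of 58.8 and 30.0 over 6326 and 6903 bp. Its H3K27ac of 32.4 and 34.1 over 5848 and 5897 bp was at the 93.3rd and 88.8th percentile. The H3K27ac fold enrichments of both receptors differed little between replicates, with a mean of 26.5 ± 0.346 for BMPR1A and 33.3 ± 1.24 for BMPR2 (SD, n = 2). Against their own libraries both ranked lower in replicate 2, with BMPR1A at the 82.8th and 73.8th percentile in replicates 1 and 2. BMPR1A has 5 annotated transcript starts, and the 3 that lie inside the gene, 74914, 105995 and 111484 bp after the first, carried no H3K4me3 in either replicate. The start at 105995 bp had H3K27ac of 4.32 and 4.74 within 1 kb.

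The ID genes had the widest H3K27ac peaks at the start of the 10, and ID2 and ID3 also the widest H3K4me3 peaks. ID1 (chr17:35316518-35317742, plus strand) had H3K4me3 of 49.4 and 24.8 over 5865 and 5799 bp, and H3K27ac of 16.7 and 21.9 over 10050 and 10288 bp. ID2 (chr3:127500759-127503207, minus strand) had H3K4me3 of 45.0 and 25.5 over 10409 and 10583 bp, and H3K27ac of 20.3 and 27.2 over 10392 and 10472 bp. ID3 (chr6:81422541-81424169, minus strand) had H3K4me3 of 59.3 and 34.6 over 10271 and 9964 bp, and H3K27ac of 33.3 and 37.2 over 16950 and 15501 bp. The genes themselves are only 1225, 2449 and 1629 bp long, so that each domain ran past both ends of its gene. The wide region at ID2 also holds the start of the uncharacterized LOC106509912, and that at ID3 the start of LOC110261114. In height the ID genes were less apart: for H3K4me3, ID1 and ID2 lay near or below the median gene, between the 36.8th and 51.0th percentile, and ID3 was above it at the 65.7th and 84.8th.

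**Figure D2:**
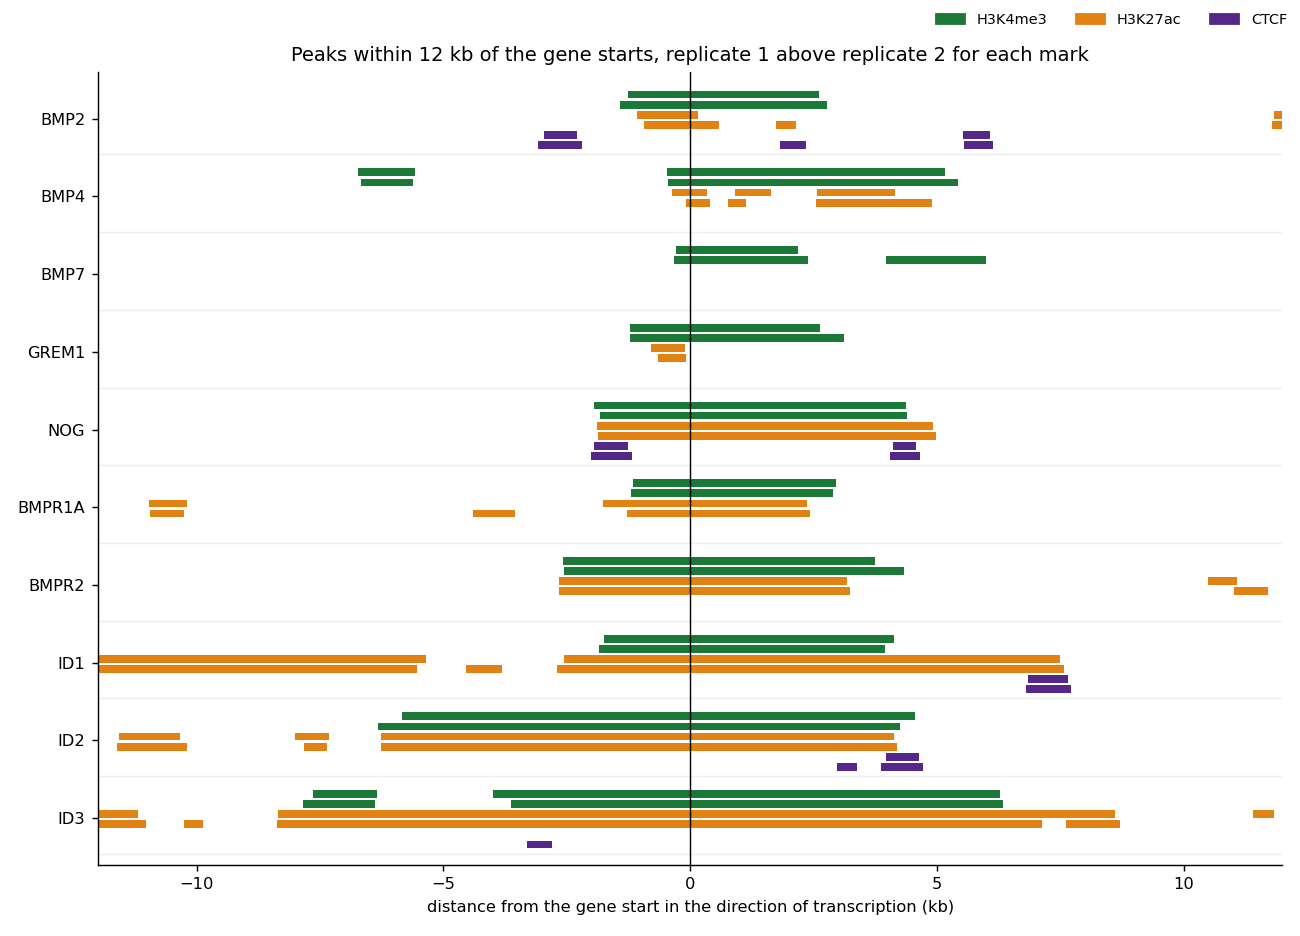
Peaks of each library within 12 kb of the gene start, drawn to scale against the distance from the start in kb in the direction of transcription, with replicate 1 above replicate 2 for H3K4me3 (green), H3K27ac (orange) and CTCF (purple). The H3K27ac domain at ID3 spans 16950 and 15501 bp, BMP7 has no H3K27ac, and the upstream CTCF peaks at NOG end at -1186 bp or farther from the start.

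The number of bases covered by peaks within 5 kb on either side of the start put the genes in order without use of the peak height. For H3K4me3 the mean of the replicates was 9409 ± 221 bp at ID2 and 8811 ± 250 at ID3 (SD, n = 2), between the 99.4th and 99.8th percentile of protein-coding genes. It was 6615 ± 408 bp at BMPR2, 6275 ± 75.7 at NOG, 5832 ± 46.7 at ID1 and 5469 ± 13.4 at BMP4. It was lower at BMPR1A with 4098 ± 4.95 bp, GREM1 with 4095 ± 360 and BMP2 with 4029 ± 239, and lowest at BMP7 with 3110 ± 899. BMPR1A, GREM1 and BMP2 differed by less than the SD of GREM1, and BMPR2 and NOG by less than the SD of BMPR2. The median gene with H3K4me3 in both replicates had 3075 bp.

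For H3K27ac the order was ID3, which was covered over the whole 10 kb in both replicates, ID2 with 9164 ± 48.8 bp, ID1 with 7997 ± 630, NOG with 6835 ± 29.7, BMPR2 with 5873 ± 34.6 and BMPR1A with 4354 ± 319. It then went on to BMP4 with 3111 ± 119 bp, BMP2 with 1568 ± 474, GREM1 with 627 ± 98.3 and BMP7 with none (SD, n = 2). From ID2 on, neighbours in this order were farther apart than either of their SDs, each of which rests on only 2 replicates. The cover of ID3 is capped by the window, so that its spread between replicates cannot be seen. The 3 ligands and GREM1 formed its lower end and the receptors, NOG and the ID genes its upper end. The median gene with H3K27ac in both replicates had 2919 bp, and BMP4 at the lower end was above that median.

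The ratio of the bases covered by H3K27ac to those covered by H3K4me3 showed the same division. Taken from the mean cover of the replicates, it had a median of 0.827 over the 13423 protein-coding genes with H3K4me3 in both. The ratio was 0 at BMP7, 0.181 and 0.128 at GREM1 in replicates 1 and 2, 0.319 and 0.453 at BMP2, and 0.553 and 0.585 at BMP4. It was 0.924 and 0.854 at BMPR2, 0.954 and 0.994 at ID2, and above 1 in both replicates at NOG, BMPR1A, ID1 and ID3. The highest ratio was that of ID1, at 1.29 and 1.46. In each replicate, all of the ligands and GREM1 were thus below this median from the replicate means, and the other 6 were above it.

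**Figure D3:**
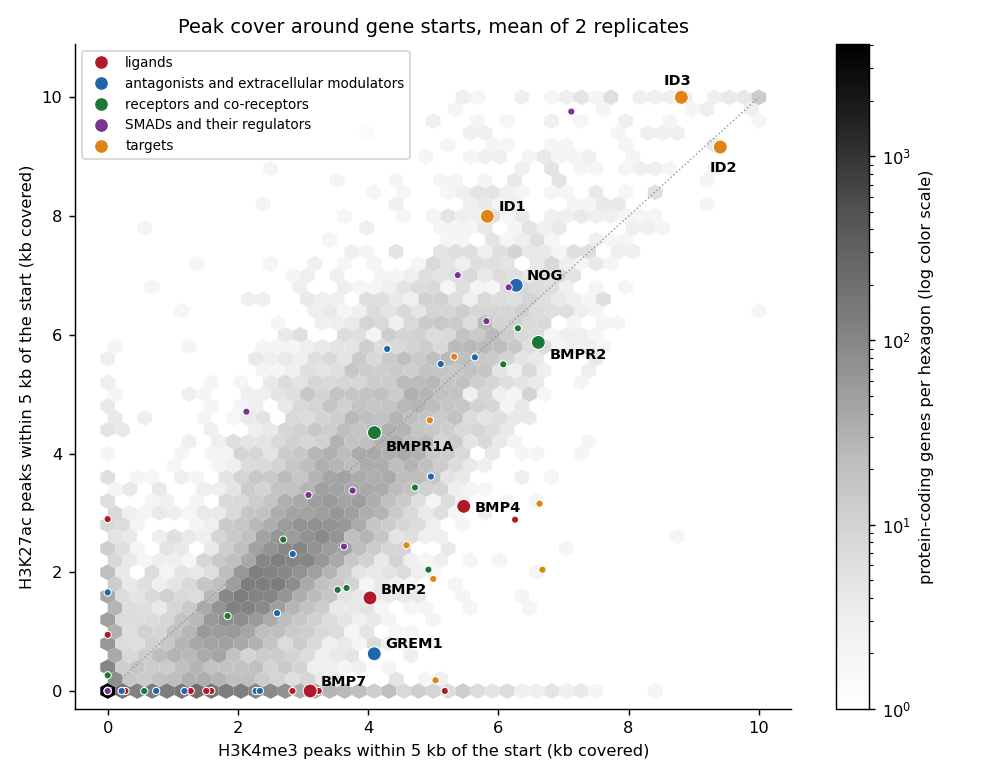
Kilobases within 5 kb of the start covered by H3K4me3 peaks (x axis) and H3K27ac peaks (y axis), as means of 2 replicates, for the pathway genes by role (colored points, the 10 named genes large) over all protein-coding genes (gray hexagons, log color scale). BMP7 lies on the x axis with 3110 bp of H3K4me3 and no H3K27ac, and ID2 and ID3 lie in the upper right corner.

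The promoters of the ID genes and the wide domains around them were searched for sequences that SMAD proteins are known to bind. The GC-rich motif GGCGCC, bound by SMAD1 and SMAD5, was found in the 300 bases from 250 before to 50 after the start at BMP2, GREM1 and BMPR1A. That is 3 of the 10 genes against 19.8% of 19484 promoters, and no ID promoter held it. The shorter CAGAC or its complement GTCTG was found in 5 of 10 against 45.0%. CANNTG, the E-box that basic helix-loop-helix factors bind, was in 6 of 10 against 67.8%. The combined motif GGCGCC, 5 bases and GTCT, the form of the BMP-responsive element described at ID1 in other mammals, was in none of these 300-base windows. This combined search was added after the peak values had been seen, and all motif searches covered both strands.

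In the regions with a peak in both replicates within 100 kb of the 10 starts, the combined motif was found 6 times, and all 6 lay in the domains over the starts of ID1, ID2 and ID3, under H3K4me3 and H3K27ac alike. The sites are shown as they carry this finding, read 5′ to 3′ on the strand that holds the motif, with the GC-rich part and GTCT in capitals. ID1 has 1 site at 3515 bp after the start (chr17:35320026-35320040, plus strand). ID2 has 2, at -3046 bp (chr3:127506246-127506260) and 3419 bp (chr3:127499781-127499795). ID3 has 3, at -2913 bp (chr6:81427075-81427089), 1066 bp (chr6:81423096-81423110) and 5100 bp (chr6:81419062-81419076), and the sites of ID2 and ID3 are on the minus strand, as are the genes.
ID1 site: GGCGCCtggctGTCT
ID2 upstream site: GGCGCCagagaGTCT
ID2 downstream site: GGCGCCaccgaGTCT
ID3 upstream site: GGCGCCaggctGTCT
ID3 first downstream site: GGCGCCggccaGTCT
ID3 second downstream site: GGCGCCcggatGTCT
The 5 bases between the capitals differ among all 6 sites.

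Of the 48 H3K4me3 regions around the 10 genes 3 held the combined motif, against 0.493% of all 33038 such regions, and of the 90 H3K27ac regions 3 did, against 0.280% of 61478. A wide region has more room for a match. Among the 1243 H3K4me3 regions of at least 5970 bp, the width of the region at ID1, 1.85% held it. In windows of equal size, 5 kb on either side of the start, it was found at 195 of 19487 protein-coding genes, or 1.00%. Of 60 pathway genes listed by role, 6 were among them: ID1, ID2 and ID3, and the other target genes ID4, MSX1 and MSX2. Within these windows 3 genes had more than 1 match, namely ID2, ID3 and CABLES2. A match is a stretch of letters in the reference and says nothing of binding, which was not measured.

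The 250 bases before the starts of ID1 (chr17:35316268-35316517, plus strand) and ID3 (chr6:81424170-81424419, minus strand) are shown for comparison with those of GREM1 and NOG, with CG pairs in capitals. They hold 19 and 14 CG pairs.
ID1 promoter: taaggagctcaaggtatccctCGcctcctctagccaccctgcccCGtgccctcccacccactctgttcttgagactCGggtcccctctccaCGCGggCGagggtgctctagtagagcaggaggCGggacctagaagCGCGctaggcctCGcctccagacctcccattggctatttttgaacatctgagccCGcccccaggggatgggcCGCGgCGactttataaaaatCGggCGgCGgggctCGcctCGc
ID3 promoter: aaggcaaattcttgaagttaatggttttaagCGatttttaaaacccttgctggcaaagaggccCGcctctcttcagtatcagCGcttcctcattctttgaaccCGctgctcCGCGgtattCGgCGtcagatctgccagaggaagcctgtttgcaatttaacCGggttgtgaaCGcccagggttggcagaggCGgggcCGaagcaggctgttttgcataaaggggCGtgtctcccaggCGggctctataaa
Both hold the TATA box letters TATAAA within 50 bases of the start on the strand of the gene, as do 1.86% of protein-coding genes and none of the other 8 genes, a search that was chosen after these sequences had been seen. In ID3 the letters end at the last base before the annotated start.

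GC content did not follow the H3K27ac order, whereas the ratio of observed to expected CG pairs partly did. Over the 300-base promoter windows the GC content ran from 52.7% at ID3 and 57.3% at BMPR2 to 80.0% at BMPR1A, with a median of 58.7% over 19484 promoters. The 2 genes of highest H3K27ac enrichment, BMPR2 and ID3, thus had the lowest GC content. The ratio of observed to expected CG pairs ran from 0.640 at BMP4 to 1.01 at BMPR1A and 1.03 at ID2, with a median of 0.650. BMPR1A, ID2, ID3 (0.921) and BMPR2 (0.893) had the highest ratios and also the highest H3K27ac fold enrichment. BMP4 and BMP7 (0.679) had the lowest ratios, with the weakest H3K27ac at BMP4 and none at BMP7. Between them, ID1 had a lower ratio (0.772) than BMP2 (0.878) and GREM1 (0.829) but stronger H3K27ac. A link was not tested.

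Within 100 kb of the start the surroundings of the genes differed widely. ID1 had the most peaks of the 10. H3K4me3 gave 16 and 17 peaks in replicates 1 and 2, H3K27ac gave 25 and 30, and CTCF gave 11 and 10. The counts of both histone marks were between the 95.3rd and 98.5th percentile of protein-coding genes. ID3 came next for both histone marks, with 12 and 9 of H3K4me3 and 18 and 22 of H3K27ac, and BMPR2 had 15 and 21 of H3K27ac. All 3 ligands and GREM1 had 2 to 4 H3K27ac peaks, against a median gene with 9 in each replicate. BMP2 had 1 H3K4me3 peak in each replicate, that at its own start. In the same windows ID3 had 4 other protein-coding starts, ID1 had 3, BMP7 and BMPR1A 2 each, GREM1 and BMPR2 1 each, and BMP2, BMP4, NOG and ID2 none, against a median of 3. The part of these neighbours in the peak counts was not tested.

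**Figure D4:**
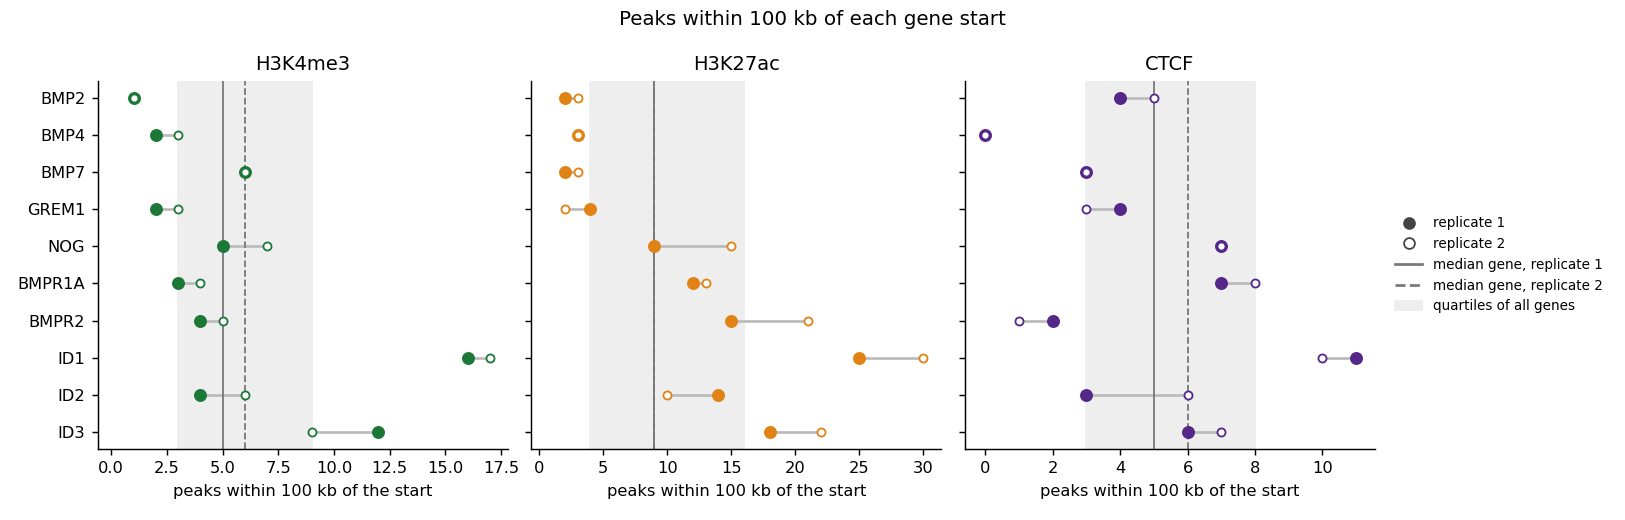
Number of peaks overlapping the 100 kb on either side of each gene start for H3K4me3, H3K27ac and CTCF, with replicate 1 as filled and replicate 2 as open points, lines at the median protein-coding gene and a gray band from the lower to the upper quartile of all genes. ID1 lies above the band for all 3 marks, and BMP4 has no CTCF peak.

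Regions of H3K27ac with a peak in both replicates, over 1 kb from the start of any gene record, were counted within 100 kb as well. ID1 had 18, BMPR2 13, ID3 10, BMPR1A 9, and NOG and ID2 7 each, whereas BMP2, BMP4 and BMP7 had 1 each and GREM1 had none. That of BMP4 is the region around its internal transcript start, so that it is not away from all annotated transcript starts. BMPR1A and BMPR2 each had 6 of these in their own gene bodies. These genes are 148521 and 160920 bp long, and their parts beyond 100 kb were not part of this count. The strongest of BMPR1A lay from 98451 to 102637 bp after the start (chr14:87841721-87845907), without H3K4me3, at 23.3 and 31.2. That is about as high as the H3K27ac peak at the start of BMPR1A itself, 26.2 and 26.7. A region of BMPR1A from 40054 to 42776 bp, at 15.9 and 13.7, carried H3K4me3 and CTCF as well, and so did an upstream region from -43529 to -41568 bp at 23.8 and 25.3. The 13 regions of BMPR2 were weaker, with the highest at a mean of 8.29, and were spread over both sides of the start.

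Long H3K27ac domains lay beside ID1 and ID3. Their widths here are those of unions of overlapping peaks of both replicates, which can bridge a gap within 1 replicate. At ID3 a domain of 27010 bp ran from -38030 to -11021 bp (chr6:81435190-81462199), at 30.6 and 28.9 and lay just upstream of the 17089 bp domain over the start. It holds the start of the uncharacterized LOC102158376. At ID1 a domain of 14486 bp lay upstream from -57136 to -42651 bp, at 19.7 and 20.8. On the downstream side a domain of 17144 bp began at 53728 bp, at 32.0 and 34.3, and 1 of 18799 bp at 75179 bp, at 23.0 and 26.1. The former holds the start of the uncharacterized LOC106506650. The latter ended at 93977 bp, just short of the H3K27ac region at the start of BCL2L1, which began at 94611 bp. Which gene these domains act on was not tested. ID2 had smaller regions, the strongest being 3897 bp from -15927 to -12031 bp at 11.8 and 11.4 and 1703 bp from 88258 bp at 10.1 and 11.7. At NOG the 7 regions away from gene starts stayed at or below a mean of 6.65.

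**Figure D5:**
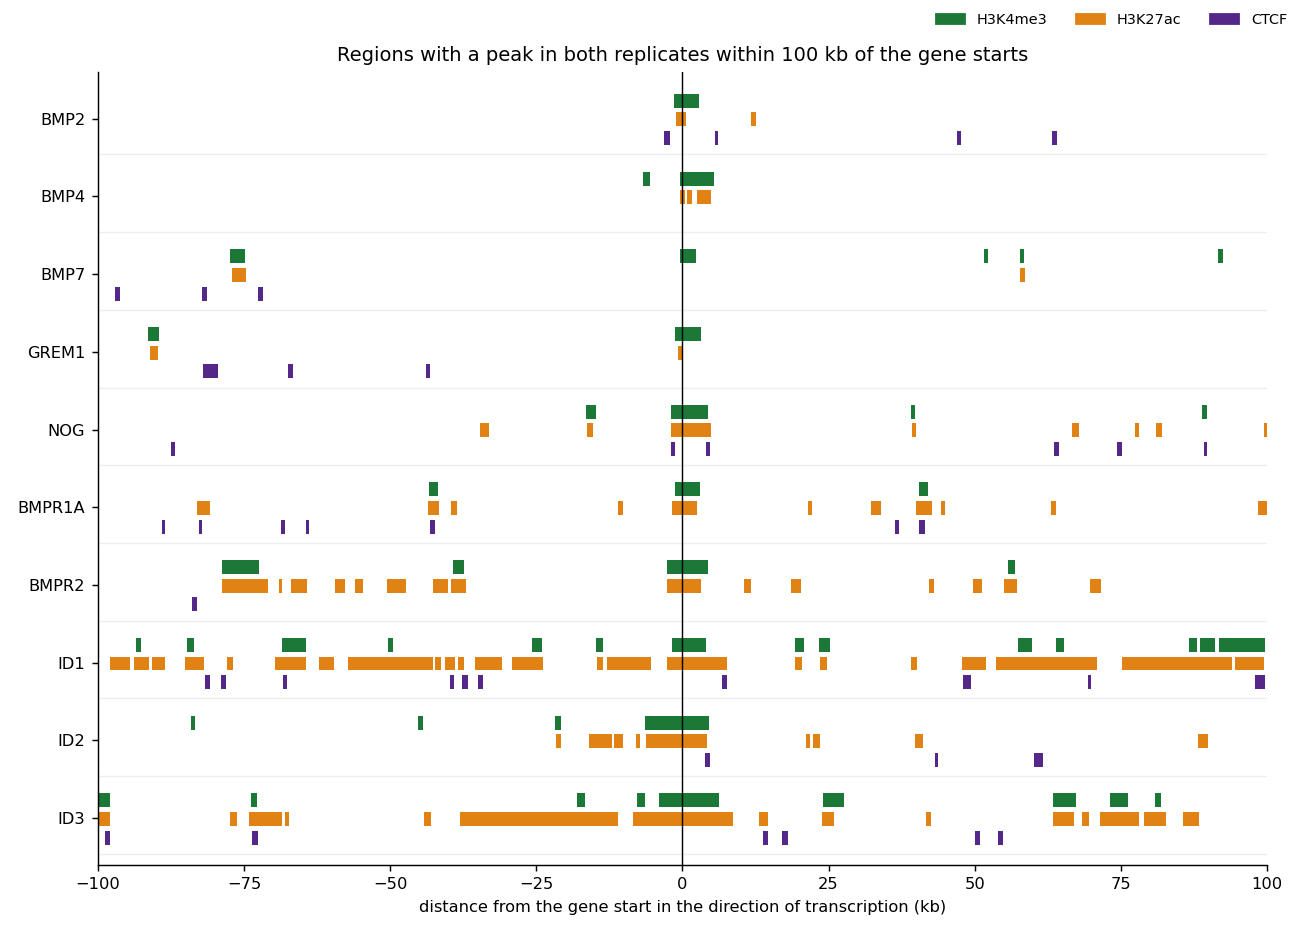
Regions with a peak in both replicates within 100 kb of each gene start, drawn to scale (regions under 0.5 kb widened to be visible) against the distance from the start in kb in the direction of transcription, in green for H3K4me3, orange for H3K27ac and purple for CTCF. H3K27ac is dense around ID1, ID3 and BMPR2 and sparse around BMP2, BMP4, BMP7 and GREM1, and the nearest CTCF regions flank BMP2 and NOG closely.

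CTCF was absent from all 10 starts but flanked each gene at very different distances. With 37874 CTCF regions that had a peak in both replicates, the interval between the nearest regions on both sides of a start had a median of 62.9 kb over protein-coding genes. NOG sat in the shortest interval, 5.94 kb, at the 3.13th percentile, and BMP2 in the next, 8.47 kb, at the 5.20th. ID1 had 41.8 kb, BMPR1A 79.5 kb, ID3 87.5 kb, GREM1 212 kb, BMPR2 and BMP7 221 kb each, ID2 318 kb and BMP4 553 kb, which is the 97.0th percentile. In 8 of the 10 intervals no other protein-coding start was found, against 46.9% of all protein-coding genes. The exceptions were the interval of BMP7, which holds SPO11, and that of BMPR2, which holds NOP58. BMP4 had no CTCF peak within 100 kb in either replicate, which put it at the 2.24th and 1.97th percentile of that count.

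The limit of 1 kb just left out NOG, where the upstream CTCF region, of 25.9 and 32.8, ran from -2007 to -1186 bp. Among what it kept, the farthest was a small H3K27ac peak of BMP4, 904 bp from the start. With a limit of 5 kb, 3 genes had CTCF in both replicates, BMP2, NOG and ID2, against 35.0% of protein-coding genes. The upstream region of BMP2, from -3077 to -2200 bp, had 34.9 and 38.3, and the region downstream of ID2, from 3860 to 4716 bp, had 27.5 and 48.6. The highest CTCF peak next to any of the 10 starts was that downstream of ID1, from 6798 to 7706 bp, at 62.7 and 73.2, and it overlapped the downstream edge of the H3K27ac domain over ID1.

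The letters CC, 3 bases, AG, 2 bases, GGC, a core of the CTCF motif, were searched within 100 bp of the summits. They were found at 39.1% and 37.3% of all CTCF peaks in replicates 1 and 2, against 2.76% and 2.69% of windows moved by 1 kb. Flanking regions were searched from 100 bp below the lower to 100 bp above the higher summit of the replicates. Of the 20 flanking regions of the 10 genes 10 held the core, against 42.8% of the 38926 flanking regions of all protein-coding genes. In all 10 the core was oriented towards the gene start, that is, CC was on the far side and GGC on the side of the start. Over all protein-coding genes 52.1% of the 16676 flanking cores pointed towards the start. Flanking regions are shared by neighbouring genes, and GREM1 and BMPR2 had no core at either side. BMP2 and ID1 had the core at both sides, facing each other, as did 26.0% of the 3686 protein-coding genes with a core at both sides. The 10 cores are shown with 4 bases on either side, 5′ to 3′ on the strand that holds them, with the core in capitals.
BMP2 upstream, plus strand, chr17:15747860-15747879: tccaCCACAAGAGGGCagcc
BMP2 downstream, minus strand, chr17:15756281-15756300: ttggCCACTAGACGGCacca
BMP4 upstream, minus strand, chr1:183599710-183599729: ataaCCAGAAGGTGGCactg
BMP7 downstream, plus strand, chr17:57527695-57527714: cctgCCACAAGGAGGCgacg
NOG upstream, plus strand, chr12:32889735-32889754: cgggCCAGCAGAGGGCgcgc
BMPR1A upstream, plus strand, chr14:87700464-87700483: aggcCCGCCAGGGGGCggca
ID1 upstream, plus strand, chr17:35281960-35281979: gcggCCACCAGGTGGCaggc
ID1 downstream, minus strand, chr17:35323725-35323744: tgtcCCGGGAGGGGGCgcca
ID2 downstream, plus strand, chr3:127498908-127498927: ctggCCAGCAGGTGGCgccc
ID3 upstream, minus strand, chr6:81497461-81497480: ttgaCCAGTAGATGGCgcca
The core lay between 1 and 46 bp from the mean summit of the replicates.

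The wider pathway was read from lists by role, 60 genes in all, including the 10. H3K4me3 was at the start of 47, H3K27ac at 38 and CTCF at 12, and without the 10 genes at 37, 29 and 12 of 50. These are 74.0%, 58.0% and 24.0% of the 50, near the 68.9%, 60.7% and 17.9% of all protein-coding genes. Of 14 ligands 10 carried H3K4me3 and only BMP2, BMP4 and GDF6 carried H3K27ac in both replicates. H3K4me3 in both replicates without any H3K27ac was found at 7 ligands, against 8.25% of all protein-coding genes. They were BMP3, BMP6, BMP7, BMP8A, BMP8B, GDF5 and GDF7, and H3K4me3 was not called at BMP5, BMP10, BMP15 and GDF2. BMP6 had H3K4me3 of 36.3 and 18.6 and BMP3 34.7 and 14.8, above BMP7 but below the median gene with a peak in both replicates, and both were named after their values had been seen.

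Of 15 antagonists and extracellular modulators 10 carried H3K4me3 and 9 H3K27ac. Among them, FST, encoding follistatin, had H3K27ac of 13.1 and 9.05, and TWSG1, a chordin partner, 17.9 and 19.3, above GREM1 in both replicates. CHRDL2 and SOSTDC1 were among those with H3K4me3 alone, and CER1, CHRD, DAND5, NBL1 and SOST were not called for H3K4me3. Within 5 kb of the start, H3K4me3 peaks covered a mean of 2842.5 bp at CHRD, 2337.5 at SOST and 215 at DAND5, and none at CER1 and NBL1. Of 12 receptors and co-receptors 10 carried both marks, against 58.9% of all protein-coding genes, with BMPR1B and AMHR2 as the exceptions. BMPR1B, the other type I receptor closest to BMPR1A, had no peak of either mark at its start in either replicate. Of 9 SMADs and their regulators 7 carried both marks, against the same 58.9%, and SMAD4 and SMAD6 had neither at the start of the gene record. Within 5 kb SMAD6 had a mean of 3084 bp of H3K4me3 and 3302 bp of H3K27ac, and SMAD4 had none. All 10 targets carried H3K4me3 and 9 H3K27ac, against 68.9% and 60.7%, DLX5 having H3K27ac of 3.35 in replicate 2 only. No receptor, SMAD regulator or target had H3K4me3 in both replicates with H3K27ac in neither, against 8.25% of all protein-coding genes. These lists are short, so that this absence and the counts by role carry little weight.

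CTCF at the start, which none of the 10 genes had, was found in both replicates at GDF5, GDF6, BMPER, FST, TWSG1, ACVR1, ACVR2A, AMHR2, BAMBI, RGMB, SMAD6 and MSX2. GDF5 had the highest, at 58.9 and 59.2, beside an H3K4me3 peak of 10.7 and 8.16. At AMHR2, with CTCF of 48.1 and 54.6, no histone mark was found at the start. Receptors and co-receptors had the most, 5 of 12, against 12 of 60 over all lists and 17.9% of all protein-coding genes. This is the highest count among short lists and carries little weight.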

How the data were processed

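Peak lists of 6 ChIP-seq libraries of PEFs were used, 2 replicates for each of 3 targets. The authors aligned reads with Bowtie2, discarded duplicates and called narrow peaks per library with MACS2 against a control. The submitters' processing notes name Sscrofa11.1, and tool versions are not given in the sources used here. Each deposited list gives an integer score (not used), the fold enrichment over control (a ratio), and the p-value and q-value as −log10. Their q-values reached 0.0432 to 0.0499, above the limit named in the methods, and no peak was removed for it.

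Gene starts are the 5′ ends of RefSeq gene records (release 106). A gene was called where a peak overlapped the 1 kb on either side of its start in both replicates. Shared regions are unions of peaks of both replicates overlapping by at least 1 bp. Between 435 and 633 peaks per library outside chromosomes 1 to 18 and X were left out. Percentiles are over protein-coding genes. Sequences were read from the RefSeq genome, and 3 promoters of other genes were left out of the base composition.

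The genes, lists and markers were chosen with earlier results of these data known. Besides the 10 genes, pathway genes are named where they differ from most of their role in the H3K4me3 call or carry CTCF at the start, and neighbours where a peak lies at their start. Of 61 pathway genes 60 were found, without HJV, and KRT14 and TUBB3 of the markers were not found. Calls and regions were tested on simulated peaks. Python 3.11.15, pandas 2.3.3, numpy 2.4.6 and matplotlib 3.10.9 were used. The 2 input libraries, Hi-C and IDR-merged peaks were not used here. No model was fitted. Alternatives were the distance to the start, any transcript start, a −log10 q-value of at least 5, position by summit, each replicate alone, windows of 50 and 200 kb, and all annotated genes as background.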

Additional observations from a re-analysis of the deposited data

How the results depend on the processing

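No paired analysis was possible because no test between groups was made, and the replicate numbers join libraries of different targets. Of 75 alternative values for 15 counts, 62 stayed within 1.5 times the value given in the report. When peaks were placed by their summit, H3K4me3 was called at 6 of the 10 genes, without BMP4, BMPR1A, ID1 and ID3, against 52.2% of protein-coding genes, and at 29 of the 60 pathway genes, and H3K27ac at 25 of the 60, against 51.2%. By summit, H3K27ac was called at 7 of the 10 genes, without BMP7, ID3 and NOG, against the same 51.2%. In a wide peak the summit can lie over 1 kb from the start. With a limit of 5 kb, CTCF was called at 3 of the 10 genes and 29 of the 60, against 35.0%, and with the start inside the peak at 6 of the 60, against 8.04%. Counts in a window of 50 kb, as sums over the 10 genes, were 32.0 H3K4me3, 62.5 H3K27ac and 21.0 CTCF peaks per library, and 105, 208 and 95.0 in 200 kb, against 58.0, 113 and 48.5 in 100 kb. With a −log10 q-value of at least 5, H3K27ac peaks in the gene bodies fell from 34.0 to 20.5. At this limit H3K27ac was called at 8 of the 10 genes, without BMP4 and BMP7, against 59.1%. With the start inside the peak, it was called at 8 of the 10 genes, without BMP7 and GREM1, against 53.7%. Each replicate alone gave the same 10, 9 and 0 genes for H3K4me3, H3K27ac and CTCF. The lists give no reads per peak, and a gene without a peak may have signal below the caller's threshold.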
